A study of Homo sapiens with 7 samples.

Results

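miR-22-3p (hsa-miR-22-3p in the table), the guide strand of the tumour-associated microRNA miR-22, was measured in captures of the BRAF-X1 mRNA from A375 cells, a human melanoma cell line. It was chosen by name and was 1 of 480 mature microRNAs in the deposited table. The opposite strand, miR-22-5p, was not analysed here, and no ratio of the arms is given. The captures were made with miR-CATCHv2.0, in which capture probes pull a chosen mRNA out of formaldehyde-fixed cells and the small RNA that comes with it is sequenced. The groups were 3 captures with the ODD probe set and 3 with the EVEN probe set, both against the 3' UTR of BRAF-X1 (together called X1 probes), and 1 capture with scrambled probes. All 7 came from A375 cells, with no drug or genotype named in the labels, fixed with 1% formaldehyde for 10 min at 24 h after seeding, so the scrambled capture shares the cell line and the fixation with the others. The study's question is the set of microRNAs that bind this isoform of the BRAF mRNA. The table holds microRNAs alone, so how much BRAF mRNA each capture held was not analysed here.

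A microRNA guides Argonaute proteins to mRNAs that pair with its seed, the bases near its 5' end, and such pairing usually lowers the mRNA's translation and stability. miR-22 is made from an exon of its own noncoding host transcript, MIR22HG, and is strongly conserved among vertebrates. It has been described both as a brake on tumour growth and as a promoter of it, the second through targets such as the TET enzymes, which remove DNA methylation. BRAF is a kinase that drives the MAPK pathway in many melanomas.

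The MIR22 gene lies on chromosome 17 (GRCh38.p14, chr17:1713903-1713987) inside the noncoding gene MIR22HG (chr17:1711504-1716210). The 2 arms are read from the minus strand, the -3p arm at chr17:1713914-1713935 and the -5p arm at chr17:1713952-1713973, with 16 bases between them. They are shown because the seed, in capitals (bases 2 to 8, sequences from RefSeq), decides what the captured strand can pair with:
miR-22-3p: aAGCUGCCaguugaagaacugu
miR-22-5p: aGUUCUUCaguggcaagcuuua
An mRNA site that pairs with the whole seed of miR-22-3p reads GGCAGCU. No other of the 2370 mature names in the RefSeq table had this seed, over bases 2 to 8 or over bases 2 to 7. Of the 480 names in the deposited table, 406 were matched to a RefSeq sequence. Each of the other matched names differed from miR-22-3p by at least 9 edits, while let-7a-5p and let-7f-5p differ from each other by 1. The unmatched names were not compared. miR-22-3p also had 1 hairpin row, so its reads were not split or repeated over several precursors.

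miR-22-3p was among the abundant microRNAs of every capture, and the difference between X1 probes and scrambled probes was smaller than the spread between libraries. It averaged 16007 ± 4164 RPM over X1-probe libraries (SD, n = 6), against 12696 RPM in the scrambled library (n = 1). RPM scales each library's microRNA reads to a fixed total (1e+06), so it cannot show how much RNA a capture yielded. In all, 1422 reads of miR-22-3p were counted, out of 4049 to 35508 reads per library over all hairpin rows. The RPM and intervals use these totals, in which some microRNAs have several rows. With 1 row per name the totals were 3046 to 25679 reads.

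With ODD probes, miR-22-3p had 14415, 19348 and 20746 RPM in replicates 1 to 3, from 156, 687 and 84 reads. With EVEN probes it had 14636, 17665 and 9230 RPM in replicates 1 to 3, from 136, 256 and 44 reads. The scrambled library had 12696 RPM, from 59 reads. All 3 ODD libraries lay above the scrambled one, as did EVEN replicates 1 and 2, while EVEN replicate 3 lay below it. ODD and EVEN libraries overlapped, and 2 of 3 ODD libraries were above every EVEN library.

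**Figure D1:**
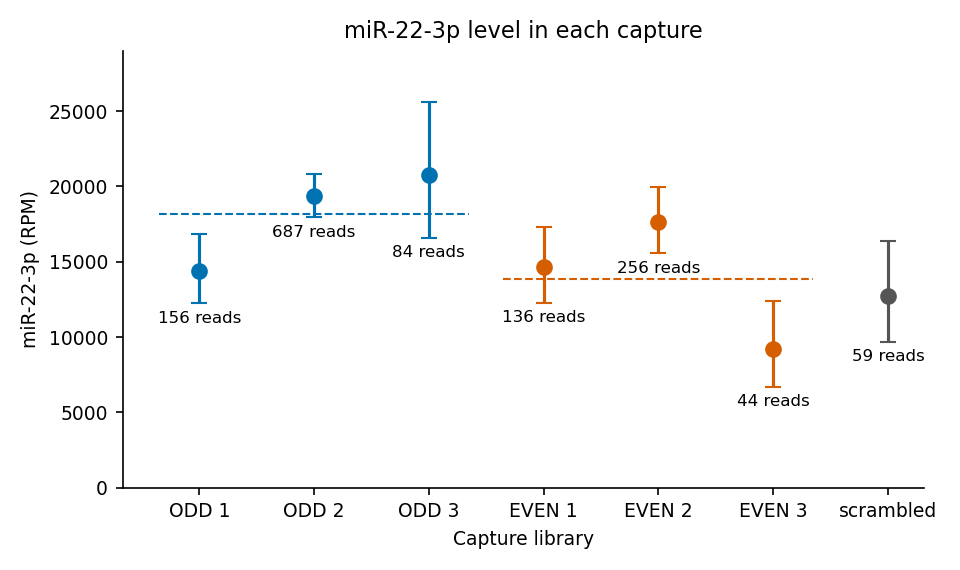
The level of miR-22-3p in RPM (vertical axis) is plotted for each capture library. Points are single libraries, bars are exact 95% counting intervals, numbers are reads, and dashed lines are the means of 3 ODD and 3 EVEN libraries. ODD replicate 3 is highest and EVEN replicate 3 lowest, and the scrambled library lies between them.

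The number of reads set how exactly each level was known. The exact Clopper-Pearson 95% interval ran from 17940 to 20835 RPM in ODD replicate 2, the deepest library. It ran from 6714 to 12371 RPM in EVEN replicate 3, where 1 read was worth 210 RPM, and from 9679 to 16347 RPM in the scrambled library. These intervals cover counting error alone, because the reads carry no molecular identifiers and need not be independent molecules. From high to low the order was ODD replicate 3, ODD replicate 2, EVEN replicate 2, EVEN replicate 1, ODD replicate 1, scrambled and EVEN replicate 3. All 6 pairs of neighbours in this order had overlapping intervals, as had 14 of all 21 pairs. Within the ODD set the intervals of replicates 1 and 2 did not overlap, and within the EVEN set those of replicates 2 and 3 did not. The other 4 pairs within a set overlapped. The scrambled interval overlapped those of ODD replicate 1 and of all 3 EVEN libraries, but not those of ODD replicates 2 and 3.

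X1 probes against scrambled gave a log2 difference of 0.29 (limma, SE 0.33, 95% interval -0.39 to 0.96, adjusted p = 0.673, higher in 5 of 6 libraries). On the linear scale the interval runs from 0.764-fold to 1.95-fold, and its upper end was 3.36-fold without the eBayes trend. At the mean level of the X1-probe libraries the scrambled library would hold 74.4 reads, against 59 counted. Of the 242 microRNAs tested, 2 rose and none fell in this comparison (0.826% called; at an unadjusted p under 0.05 there were 17 higher and 4 lower), and miR-22-3p was not among them. The direction of the calls depended on the setting, with 3 higher and 9 lower without a filter and 0 higher and 1 lower by voom on the recovered reads. The median log2 difference of all 242 was 0.096, so miR-22-3p stood 0.19 above it. With no filter on low levels the median was 0.50 and miR-22-3p stood below it, at -0.21. With 1 scrambled library, the fit takes its spread to equal that within the ODD and EVEN sets.

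The probe sets were then taken singly, against the same scrambled library. Over the ODD libraries miR-22-3p averaged 18170 ± 3326 RPM (SD, n = 3), against 12696 RPM with scrambled probes. Their log2 difference was 0.50 (limma, 95% interval -0.22 to 1.22, adjusted p = 0.729), where 0.826% of microRNAs were called. Over the EVEN libraries it averaged 13844 ± 4273 RPM (SD, n = 3), which gave a log2 difference of 0.074 (limma, 95% interval -0.65 to 0.80, adjusted p = 0.923, 0.826% called). The direction of the EVEN difference rested on single libraries. It was -0.13 without EVEN replicate 2 and 0.34 without EVEN replicate 3.

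ODD and EVEN probes were directed at 1 transcript. The ODD mean of miR-22-3p was 1.31 times the EVEN mean, which gave a log2 difference of 0.43 (limma, SE 0.25, 95% interval -0.084 to 0.94, unadjusted p = 0.0989, adjusted p = 0.909). In this comparison 0.413% of the 242 microRNAs were called. Without the eBayes trend the SE of miR-22-3p was 0.44 and its unadjusted p was 0.377 (limma). The exact two-sided permutation test gave p = 0.3, where 0.1 is the smallest p that 3 against 3 libraries allow. Most of the separation lay in replicate 3. In replicate 1 the ODD and EVEN levels, 14415 and 14636 RPM, were nearly equal (ratio 0.985), and in replicate 2 they were 19348 and 17665 RPM (ratio 1.10). In replicate 3 they were 20746 and 9230 RPM (ratio 2.25), the highest and lowest of all 7. Without EVEN replicate 3 the difference was 0.16, and without replicate 3 of both sets it was 0.055. Replicate 3 of both sets and the scrambled library carry the same number, 12, in their labels and were the 3 shallowest, at 4049, 4767 and 4647 reads. They hold the highest level, the lowest level and the scrambled level, and the part of depth in this was not tested.

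**Figure D2:**
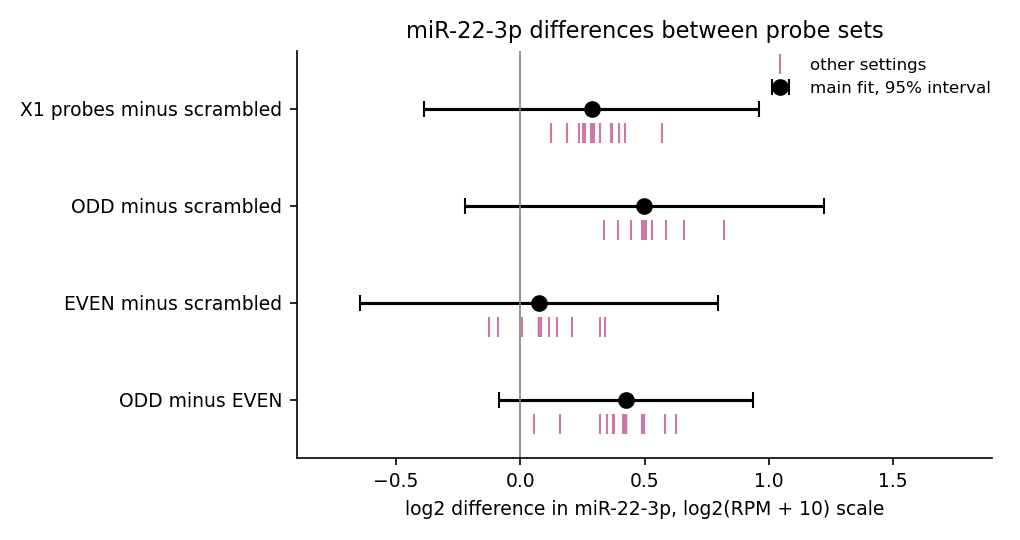
The log2 difference of miR-22-3p on the log2(RPM + 10) scale (horizontal axis) is given for 4 comparisons. Black points with bars are the main values with 95% intervals, and ticks under them are the values under the other settings. Every interval includes 0, and the ticks of EVEN minus scrambled lie on both sides of 0.

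In the order of abundance miR-22-3p was at rank 10 or 11 with ODD probes, at ranks 11, 12 and 16 with EVEN probes and at rank 15 with scrambled probes. By the mean of all 7 libraries it was at rank 13. The 8 microRNAs above it in every library were miR-27b-3p, miR-21-5p, miR-191-5p, let-7a-5p, miR-423-5p, miR-92b-3p, miR-181a-5p and miR-92a-3p. Of the 14 levels next to it, above and below in 7 libraries, 12 lay inside its counting interval. The exceptions were let-7f-5p above it in EVEN replicate 1, at 17865 RPM, and let-7i-5p below it in EVEN replicate 2, at 14353 RPM. In ODD replicate 1 it had 156 reads, between miR-222-3p with 175 and miR-30a-5p with 153. In the scrambled library it had 59 reads, between miR-181b-5p with 63 and miR-182-5p with 48. In EVEN replicate 3 its 44 reads tied with those of 1 other microRNA.

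Its nearest neighbours by mean level were miR-222-3p, miR-10a-5p and miR-181b-5p above it and let-7f-5p, miR-30a-5p and let-7i-5p below it. miR-222-3p is known for promoting melanoma growth, miR-10a-5p comes from a HOX gene cluster, miR-30a-5p restrains autophagy, and let-7f-5p and let-7i-5p belong to the let-7 tumour suppressor family. miR-181b-5p averaged 16250 ± 3866 RPM over X1-probe libraries (SD, n = 6), against 13557 RPM in the scrambled library, both within the spread of miR-22-3p. miR-10a-5p averaged 15481 ± 2764 RPM over X1-probe libraries (SD, n = 6), against 22595 RPM in the scrambled library. It stood above miR-22-3p in EVEN replicate 3 and the scrambled library and below it in the remaining 5 libraries. let-7f-5p stood above miR-22-3p in all 3 EVEN libraries and below it in all 3 ODD libraries and the scrambled one.

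**Figure D3:**
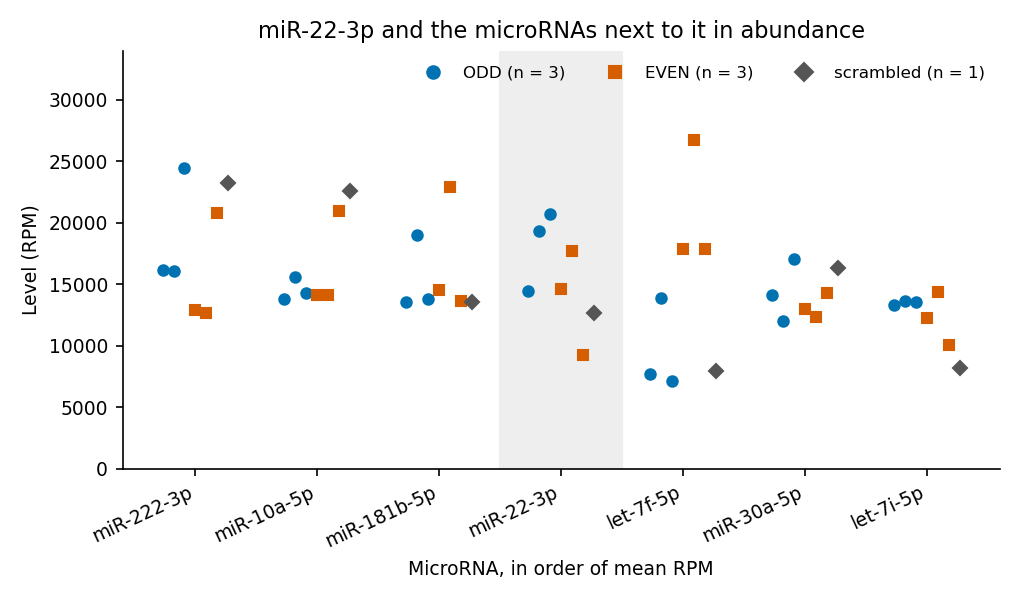
Levels in RPM (vertical axis) are plotted for miR-22-3p (shaded) and the 3 microRNAs on either side of it in the order of mean RPM. Each mark is 1 library: circles for ODD, squares for EVEN and the diamond for scrambled. The levels of miR-22-3p, from 9230 to 20746 RPM, overlap those of all 6 neighbours.

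Among the 17 microRNAs of at least 10000 RPM on average, miR-22-3p was one of the more variable. Its SD of log2(RPM + 10) over the 7 libraries was 0.40, the second highest after let-7f-5p at 0.74, against a median of 0.28 for the 17. Within the EVEN set its SD of 0.48 was the highest of the 17, and within the ODD set, at 0.28, it was in place 6. Both high places rested on EVEN replicate 3: without that library its SD was 0.28 over the other 6 libraries and 0.19 within the EVEN set, in place 8 each time. Its highest level was 2.25 times its lowest, while miR-92a-3p, the most abundant microRNA, had an SD of 0.091.

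The microRNAs whose pattern was most like that of miR-22-3p were taken from the 67 others of at least 1000 RPM on average, by Pearson's r of log2(RPM + 10) over the 7 libraries. Over the 67, r ran from -0.86 (miR-584-5p) to 0.86, with a median of -0.034. The 5 highest were let-7c-5p (r = 0.86), miR-1260a (0.79), let-7e-5p (0.72), let-7i-5p (0.72) and miR-103a-3p (0.72). Their sequences are shown, with bases 2 to 8 in capitals, because 3 of the 5 share a seed with each other and none shares it with miR-22-3p:
let-7c-5p: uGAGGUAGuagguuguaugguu
let-7e-5p: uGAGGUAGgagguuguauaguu
let-7i-5p: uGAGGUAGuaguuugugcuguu
miR-1260a: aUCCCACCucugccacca
miR-103a-3p: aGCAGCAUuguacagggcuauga
The let-7 members are near-identical, so their reads may be shared among them in counting. The likeness rested largely on EVEN replicate 3, where each of the 5, like miR-22-3p, was below its mean. Without that library r was 0.59 for let-7c-5p, 0.42 for miR-1260a, 0.38 for let-7e-5p and 0.065 for miR-103a-3p. For let-7i-5p it was 0.74 without EVEN replicate 3 and at least 0.69 without any 1 library. let-7c-5p had its most reads, 23, in ODD replicate 3, had 0 in EVEN replicate 3 and had 2 to 16 in the rest. These values share the libraries, their depths and their RPM totals, and are a description with no test.

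**Figure D4:**
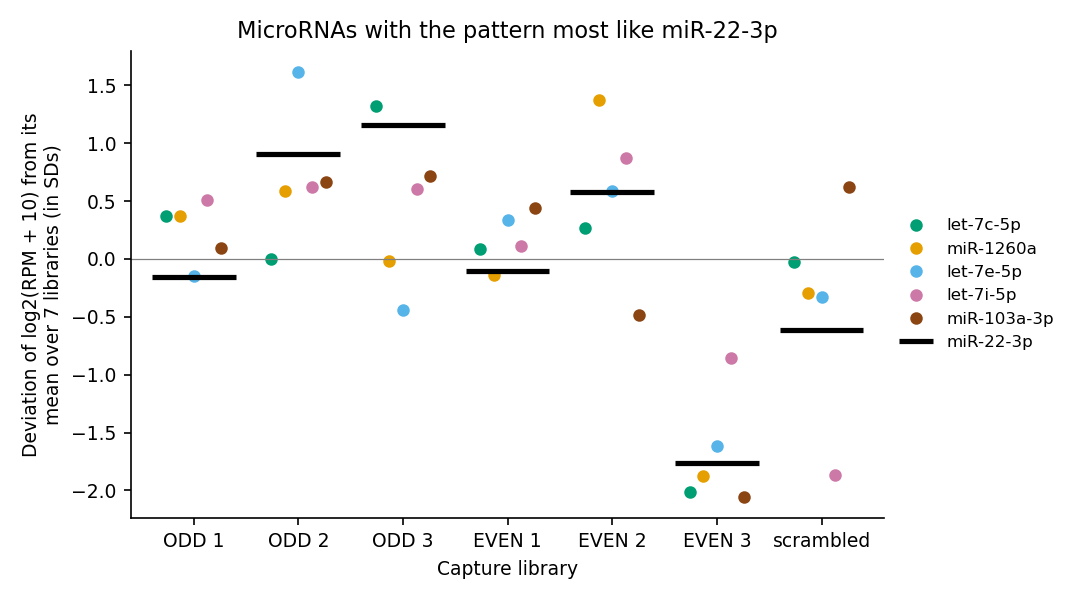
For each library, the deviation of log2(RPM + 10) from its mean over the 7 libraries, in SDs (vertical axis), is shown for miR-22-3p (black bars) and the 5 microRNAs most like it (points). In EVEN replicate 3, miR-22-3p and the 5 others all lie below 0. miR-103a-3p lies above 0 in the scrambled library, where miR-22-3p lies below.

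miR-22-3p was also set beside microRNAs that share a chromosome band or a disease with it. Of 13 mature microRNAs from band 17p13, which holds MIR22, 5 had a row and 3 were tested. None passed in any of the 4 comparisons, where 0.826% of all tested were called in each comparison with scrambled and 0.413% between ODD and EVEN. miR-22-3p was the abundant one, with 1363 reads over the 6 X1-probe captures, against 59 for scrambled. miR-132-3p, which acts in neurons and vessels, and miR-324-3p had 14 reads each over the same captures, against 0 for scrambled. These read sums cover 6 captures of 4049 to 35508 reads each, against 1 of 4647, so they do not compare levels. miR-497-5p and miR-195-3p had 1 read each in all.

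Of 29 microRNAs known from work on melanoma, 18 were tested and none passed in any of the 4 comparisons. Among all 242 tested, 0.826% were called in each comparison with scrambled and 0.413% between ODD and EVEN. At shares this low, no call among 18 does not set these microRNAs apart. With X1 probes against scrambled their median log2 difference was 0.18, against 0.096 over all 242. With members at 0 scrambled reads set at a bound of 3 reads it was 0.070, against -1.36 over all 242. That bound was applied to 1 of the 18 but to 77 of all 242, so this gap does not show enrichment of the melanoma members. The most abundant members were let-7a-5p, miR-21-5p, miR-222-3p, miR-10b-5p, miR-221-3p and miR-30d-5p. Their log2 differences ran from -0.48 to 0.32, a range that holds the 0.29 of miR-22-3p.

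The pigment-cell microRNA miR-204-5p was found in all 7 libraries, at 1352 to 2937 RPM with X1 probes and 861 RPM with scrambled probes. It had 152 reads over the 6 X1-probe captures, against 4 for scrambled. Of the 2 pigment-cell markers listed it was the 1 with reads, and none were counted for miR-211-5p. miR-22-3p is also known to be abundant in red cells. Of 6 blood markers 5 had reads, and their summed level was 247 to 507 RPM with ODD, 0 to 629 RPM with EVEN and 215 RPM with scrambled probes. Few reads lie behind these sums, 29 in all X1-probe captures together, against 1 for scrambled. Of the red-cell markers, miR-486-5p had 22 reads over the 6 X1-probe captures, against 1 for scrambled, and miR-451a had 1 read in all. The blood marker without reads was miR-144-3p. The part of red-cell microRNA in the level of miR-22-3p was not tested. The summed epithelial, muscle and neuronal markers had at most 494, 741 and 494 RPM with X1 probes, against 0, 646 and 1291 RPM with scrambled probes. These sums too rest on few reads, 16, 18 and 31 over all X1-probe captures, against 0, 3 and 6 for scrambled. Reads of the X1-probe captures were added over 6 libraries of 4049 to 35508 reads, against 1 of 4647, so they do not compare levels.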

How the data were processed

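The authors deposited RPM for 498 pairs of hairpin and mature microRNA in 7 libraries. The submitters' processing notes name cutadapt 1.2.1 and CASAVA 1.8. The aligner is not given in the sources used here, nor is the counting rule or the microRNA annotation. The deposited RPM columns each sum to 1e+06 over all rows and hold whole multiples of 1 read (100% of values within 1e-06 reads), which gave the reads printed. Of 480 mature names, 17 have several rows, 35 in all; the row with the most RPM was kept.

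Groups came from the sample titles. In R 4.3.3, limma 3.58.1 was fitted to log2(RPM + 10) values with group means, eBayes with a trend, and two-sided Benjamini-Hochberg adjustment at 0.05 over 242 microRNAs that reached 10 RPM in at least 3 libraries. The residual degrees of freedom were 4 and the prior 28.6. Fold changes on this scale understate those of low values. The series' design calls the captures independent but names no separate cultures, so the spread between these libraries may be technical. With 4 residual and 28.6 prior degrees of freedom, p-values do not rest on each microRNA's own spread alone. The spread used for each microRNA came mainly from the eBayes trend over all tested microRNAs. The fit was tested on simulated data that held counting noise alone, and for ODD against EVEN only. The planted changes were larger than any difference of miR-22-3p, and comparisons with the single scrambled library were not covered. Named microRNAs were the neighbours in mean RPM (3 on each side), the 5 most alike, and the 6 most abundant of each list plus those that passed; red-cell and further markers were added. A further list fixed with these is not reported here. The microRNA and the lists were chosen with earlier results of these data known.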

Additional observations from a re-analysis of the deposited data

Results flagged for a closer look

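Among the microRNAs named here, 7 results stood apart, none of them that of miR-22-3p. Over the 6 X1-probe libraries, 1 library was far from the rest for 6 microRNAs. The rule for this gap has a chance rate of about 5% only for normally spread values, not for a few reads. A microRNA with a lone read always meets it, so those flags carry no weight. miR-10a-5p was high in EVEN replicate 3, at 20978 RPM, let-7c-5p in ODD replicate 3, at 5680 RPM, and miR-324-3p in ODD replicate 1, at 554 RPM from 6 reads. miR-497-5p and miR-451a had 92.4 RPM in ODD replicate 1 and miR-195-3p 28.2 RPM in ODD replicate 2, each a lone read with 0 elsewhere. let-7f-5p was lower with ODD than with EVEN probes, by a log2 difference of -1.16 (limma, adjusted p = 0.0242, 3 of 3 ODD libraries below all EVEN libraries). It was lower under all 21 other settings, by -0.96 to -1.46, but passed in 11 of them (adjusted p 0.000869 to 0.939 by limma). It did not pass without ODD replicate 1, ODD replicate 3 or EVEN replicate 2. Nor did it with pseudocount 1, no filter, no eBayes trend or the label number as a block. Quantile scaling, TMM scaling and totals over 1 row per name also left it short of the threshold.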

How the results depend on the processing

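The log2 difference of miR-22-3p passed the adjusted threshold under none of 20 or 21 other settings per comparison. Its unadjusted p was 0.0407 for ODD against scrambled with quantile scaling, and for ODD against EVEN 0.0479 without ODD replicate 1 and 0.0227 without EVEN replicate 2. It ran from 0.12 to 0.57 for X1 probes against scrambled (adjusted p 0.498 to 0.992 by limma), from 0.34 to 0.82 for ODD against scrambled, from -0.13 to 0.34 for EVEN against scrambled and from 0.055 to 0.63 for ODD against EVEN. Leaving out single libraries gave 0.19 to 0.42, 0.40 to 0.66, -0.13 to 0.34 and 0.16 to 0.63 in the same order. The median rank of 11 became 16 with all hairpin rows kept, since repeated rows then hold ranks. TMM scaling moved the median of all 242 by 0.28 for X1 probes against scrambled. Relative to that median miR-22-3p stood 0.19 higher with TMM, 0.51 with voom and 0.37 at a mean of at least 1000 RPM, and at -0.21 with no filter, below it. Same-numbered ODD and EVEN deviations had correlations of -0.044, 0.072 and 0.019 over all tested microRNAs. At a mean of at least 1000 RPM they were -0.060, -0.040 and -0.38. Counting noise at few reads can hide a shared part, so these values cannot settle whether replicate numbers pair the samples. With the replicate block ODD against EVEN gave 0.43 (adjusted p = 0.824 by limma), and with the label number as a block EVEN against scrambled turned to -0.089. Calls over all microRNAs, 2 for X1 probes, ODD and EVEN against scrambled and 1 for ODD against EVEN, were 0 in all 4 with the label number as a block. A pseudocount of 250 gave 0, 0 and 1 against scrambled, as did a mean of at least 1000 RPM. No filter gave 12, 11, 12 and 0 (9 of them lower in each against scrambled), quantile scaling 1, 0, 0 and 0, and voom on the recovered reads 1 lower in each comparison. No eBayes trend gave 0 for ODD against scrambled and 3 for ODD against EVEN, which had 2 with all hairpin rows and 0 under pseudocount 1, TMM scaling and totals over 1 row per name. Leaving out single libraries gave 2 to 3 calls against scrambled and 0 to 3 for ODD against EVEN. Voom, totals without miR-92a-3p and leaving out replicate 3 of both sets were chosen after seeing the data. The planned count-model tests on recovered reads were not run. In the scrambled library 1 read is worth 215 RPM, which limits what a single control can show.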
